A study of Mus musculus with 3 samples.

Results

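The genes described here are 41 genes of the endoplasmic reticulum (ER) of mouse biliary epithelial cells (BECs), the cells that line the bile ducts. They encode the chaperones, disulphide isomerases and translocon subunits that fold new secretory proteins, the proteins that remove misfolded ones, and the sensors of the unfolded protein response. They were chosen by name, by their known function in the ER, out of 19321 genes that had 1 gene symbol on the array. All 41 were found and were above background on all 3 arrays. For 39 genes the array carried 1 probe, and for *Dnajc3* and *Ero1lb* the probe with the highest mean level was used.

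Intrahepatic BECs of 8-week-old female BALB/c mice were cultured, and all 3 groups came from such cultures. Control BECs were kept in a growth medium with Nu-serum, EGF, insulin, forskolin and antibiotics. Senescent BECs were induced by serum depletion or by glycochenodeoxycholic acid (GCDC, a conjugated bile acid) at 200 μM, over 4 to 7 days by the sample labels and methods, while the description of the array results gives 7 days. Each group was measured on 1 microarray with RNA pooled from 2 experiments, so no difference below has a replicate check and no p-value was computed. The methods name ER stress as a route by which GCDC brings on senescence, and the comparisons ask what the RNA of the ER genes did on each treated array.

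The ER lumen is where secreted and membrane proteins enter, fold, form disulphide bonds and receive sugars. When unfolded proteins build up, 3 sensors in the ER membrane (ATF6, IRE1 encoded by *Ern1*, and PERK encoded by *Eif2ak3*) start the unfolded protein response. ATF6 and spliced XBP1 are known to raise chaperone and degradation genes, and PERK acts through ATF4 and CHOP (*Ddit3*). The sensors act through cleavage, splicing and phosphorylation, which these arrays did not measure.

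ATF6 and XBP1 are known to bind the ER stress response element, so the promoters of the 41 genes are shown first. RefSeq promoters (GRCm38.p6, 250 bases before to 50 after the start) were matched for 35 of the 41 genes. The element (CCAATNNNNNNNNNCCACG, searched on both strands) was present in the promoters of 10 of these 35 genes (28.6%), against 37 of all 27025 genes (0.137%). These matches are given because they carry the known link between these genes and the response. Each is written in the direction of the element, with its fixed bases in capitals, and *Hsp90b1* holds a pair of matches named by the distance of their first base from the start.
Hspa5: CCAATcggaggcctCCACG
Calr: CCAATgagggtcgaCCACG
Derl3: CCAATggggaagtcCCACG
Hsp90b1 at 212: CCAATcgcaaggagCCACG
Hsp90b1 at 107: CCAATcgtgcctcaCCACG
Canx: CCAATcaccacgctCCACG
Pdia6: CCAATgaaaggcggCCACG
Ero1lb: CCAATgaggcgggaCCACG
Dnajc3: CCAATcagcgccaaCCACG
Creld2: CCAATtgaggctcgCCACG
Syvn1: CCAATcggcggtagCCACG

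The shorter form of the element (ATTGGNCCACG) was found in 2 members and in 12 of all genes (0.0444%). It lay 52 bases before the start of *Herpud1* and 8 bases after the start of *Dnajb11*.
Herpud1: ATTGGgCCACG
Dnajb11: ATTGGcCCACG

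The amino acid response element TGATGNAAN, known to bind ATF4 with a C/EBP partner, was found in 1 member (2.86%), *Herpud1*, and in 1215 of all genes (4.50%). The element TGACGTGG was found in 0 of the 35 genes and in 193 of all genes (0.714%), which says only that these letters are not in the windows searched. With the last base of the ER stress response element left free, a choice made after seeing the data, 14 of the 35 genes (40%) and 116 of all genes (0.429%) held it. The matches shared by both searches overlap. The 4 genes added were *Pdia3*, *Pdia4*, *Derl2* and *Herpud1*.

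The 250 bases before the start are printed for 4 genes whose RNA behaved differently on the treated arrays: *Hspa5* (chr2:34771840-34772089, plus strand), *Calr* (chr8:84846932-84847181, minus strand), *Herpud1* (chr8:94386179-94386428, plus strand) and *Sdf2l1* (chr16:17132384-17132633, minus strand). Each is written 5′ to 3′ along the gene, with the fixed bases of exact matches in capitals. The match with the last base left free at the end of the *Herpud1* window is in lower case. *Sdf2l1* had no exact match.
Hspa5: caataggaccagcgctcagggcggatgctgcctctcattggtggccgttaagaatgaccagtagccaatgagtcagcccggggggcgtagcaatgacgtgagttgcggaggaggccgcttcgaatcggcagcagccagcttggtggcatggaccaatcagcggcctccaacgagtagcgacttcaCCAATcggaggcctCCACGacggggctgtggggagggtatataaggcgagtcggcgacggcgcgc
Calr: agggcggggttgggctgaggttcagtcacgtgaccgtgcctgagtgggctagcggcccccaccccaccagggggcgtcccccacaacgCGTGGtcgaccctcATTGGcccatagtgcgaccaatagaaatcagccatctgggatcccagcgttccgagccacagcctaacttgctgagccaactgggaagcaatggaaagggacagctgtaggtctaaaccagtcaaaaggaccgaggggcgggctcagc
Herpud1: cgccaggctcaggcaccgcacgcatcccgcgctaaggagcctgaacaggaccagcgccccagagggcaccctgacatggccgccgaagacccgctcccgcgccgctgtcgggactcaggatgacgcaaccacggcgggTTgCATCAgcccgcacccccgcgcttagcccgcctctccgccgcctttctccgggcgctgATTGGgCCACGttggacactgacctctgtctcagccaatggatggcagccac
Sdf2l1: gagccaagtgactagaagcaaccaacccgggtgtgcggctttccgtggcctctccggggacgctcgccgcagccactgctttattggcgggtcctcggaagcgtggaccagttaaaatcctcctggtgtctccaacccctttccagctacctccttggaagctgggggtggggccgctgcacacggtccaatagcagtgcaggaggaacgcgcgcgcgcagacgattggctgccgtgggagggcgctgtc

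On each array, the intensity of a spot was corrected by the mean of the blank spots, called valid if it was more than 2 SD of the blanks above that mean, and scaled so that the valid gene probes had a median of 25. These scaled intensities are called levels. Of 23473 gene probes, 86.1% to 89.2% were valid on an array. Within an array, 24 spots of each of 2 positive controls varied with a CV of 8.93% to 14.4%, which covers spot error only. All 8 cholangiocyte markers on the array were valid on all 3 arrays, with *Krt19* at 13442, 11882 and 27738 and *Epcam* at 1760.5, 2607 and 2781 on the control, serum depletion and GCDC arrays. Lower values of this list were *Sox9* at 16.7, 20.6 and 23.1 and *Cftr* at 25.6, 23.8 and 28.6. The 7 hepatocyte markers were valid too, but summed to 201, 459 and 189.8 on the 3 arrays, with *Alb* at 3.66, 2.34 and 3.44 and *Ttr* at 36.9, 288 and 50.4. *Hnf4a*, at 135, 133 and 108, was the largest of these on the control and GCDC arrays. Summed over the markers that were valid on an array, levels were 75.7 to 104 for 7 to 8 mesenchymal, 40.4 to 86.2 for 3 to 5 endothelial, 95.4 to 129 for 5 macrophage and 15.2 to 31.0 for 3 to 4 lymphocyte markers, and *Tek*, *Adgre1* and *Nkg7* were not above background on any array. The part of these cells in the values below was not tested, and in bulk RNA fewer cells of a type and less RNA per cell cannot be told apart.

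A gene is said to have risen or fallen only where its level differed by more than 2-fold, which is a log2 ratio past 1 or -1. In serum depletion 9 of the 41 ER genes rose (22.0%) and 7 fell (17.1%), where 13.5% of all compared probes rose and 11.1% fell. In GCDC 11 rose (26.8%) and 4 fell (9.76%), where 13.0% of all probes rose and 8.51% fell. Most of the ER genes (30 of 41) had a control level above 100, and among probes with a control level above 100 the background was 20.1% higher and 11.8% lower in serum depletion, and 20.4% higher and 7.71% lower in GCDC. Of these 30 ER genes, 8 rose and 3 fell in serum depletion, and 10 rose and 2 fell in GCDC. The share that rose was thus 26.7% in serum depletion and 33.3% in GCDC, and the share that fell was 10.0% and 6.67%. The shares that fell were near the background of bright probes in both treatments.

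The median log2 ratio of the 41 genes was 0.41 in serum depletion and 0.49 in GCDC. The median of all compared probes was itself at 0.16 and 0.23, so the ER genes stood 0.25 above all probes in both treatments. This excess was -0.11 and -0.032 after quantile normalization, -0.037 and -0.0034 after cyclic loess, and 0.041 and 0.064 among probes with a level above 100 on either array compared. The counts depended on the scaling too. With cyclic loess 4 of the 41 genes rose and 9 fell in serum depletion, where 8.61% of all probes rose and 13.1% fell. In GCDC 2 rose and 5 fell with it, where 6.52% of all probes rose and 11.2% fell. With no scaling 4 rose and 9 fell in serum depletion (5.91% and 19.7% of all probes). In GCDC without scaling 2 rose and 7 fell (3.02% and 21.8% of all probes). The median of the 41 genes was 0.0065 and 0.067 after quantile normalization, and -0.019 and 0.013 after cyclic loess. With no scaling it was -0.034 and -0.16, where the median of all probes was -0.28 and -0.41. Leaving out the scaling shifts all ratios of a comparison by the same amount, so the excess of 0.25 could not change. The value without scaling is therefore no check on the excess. Of the ER genes past 2-fold, 56.3% were higher in serum depletion and 73.3% in GCDC. That split was 46.2% and 50% with equal 75th percentiles, 68.8% and 75% where the arrays were scaled on probes valid throughout, 46.2% and 45.5% when centred on the median of all probes, 42.9% in both after quantile normalization, 30.8% and 28.6% after cyclic loess, and 30.8% and 22.2% with no scaling. Over all probes the split was 55.0% and 60.4%, and ranged from 23.0% to 66.3% and from 12.2% to 66.2% over the same scalings.

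Every ER gene past 2-fold against control kept its sign under all 6 other scalings. Only quantile normalization and cyclic loess could have changed such a sign. The other scalings shift all ratios of a comparison by the same amount. The largest shift, with no scaling, was -0.45 in serum depletion and -0.65 in GCDC, too small to change the sign of a ratio past 1 or -1. Past 2-fold under all 6 were *Manf*, *Sdf2l1*, *Sec61b* and *Sec61g* among the 9 that rose in serum depletion, and *Calr*, *Sel1l*, *Sec61a1*, *Atf6* and *Atf6b* among the 7 that fell. In GCDC these were *Manf* and *Sdf2l1* among 11 that rose, and *Calr*, *Sel1l*, *Sec61a1* and *Hyou1*, all 4 that fell. The treatments share the control array, so their ratios to control are not independent. Side by side, 9 genes rose and 4 fell in both, 23 were within 2-fold in both, *Creld2* and *Derl1* rose in GCDC only by this threshold, and *Atf6*, *Atf6b* and *Ero1l* fell in serum depletion only by it. The share of all probes that moved alike in both was not counted. Of all probes 2.92% were past 2-fold higher in GCDC than in serum depletion and 2.20% lower. The overlap is therefore not read as particular to the ER genes.

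**Figure D1:**
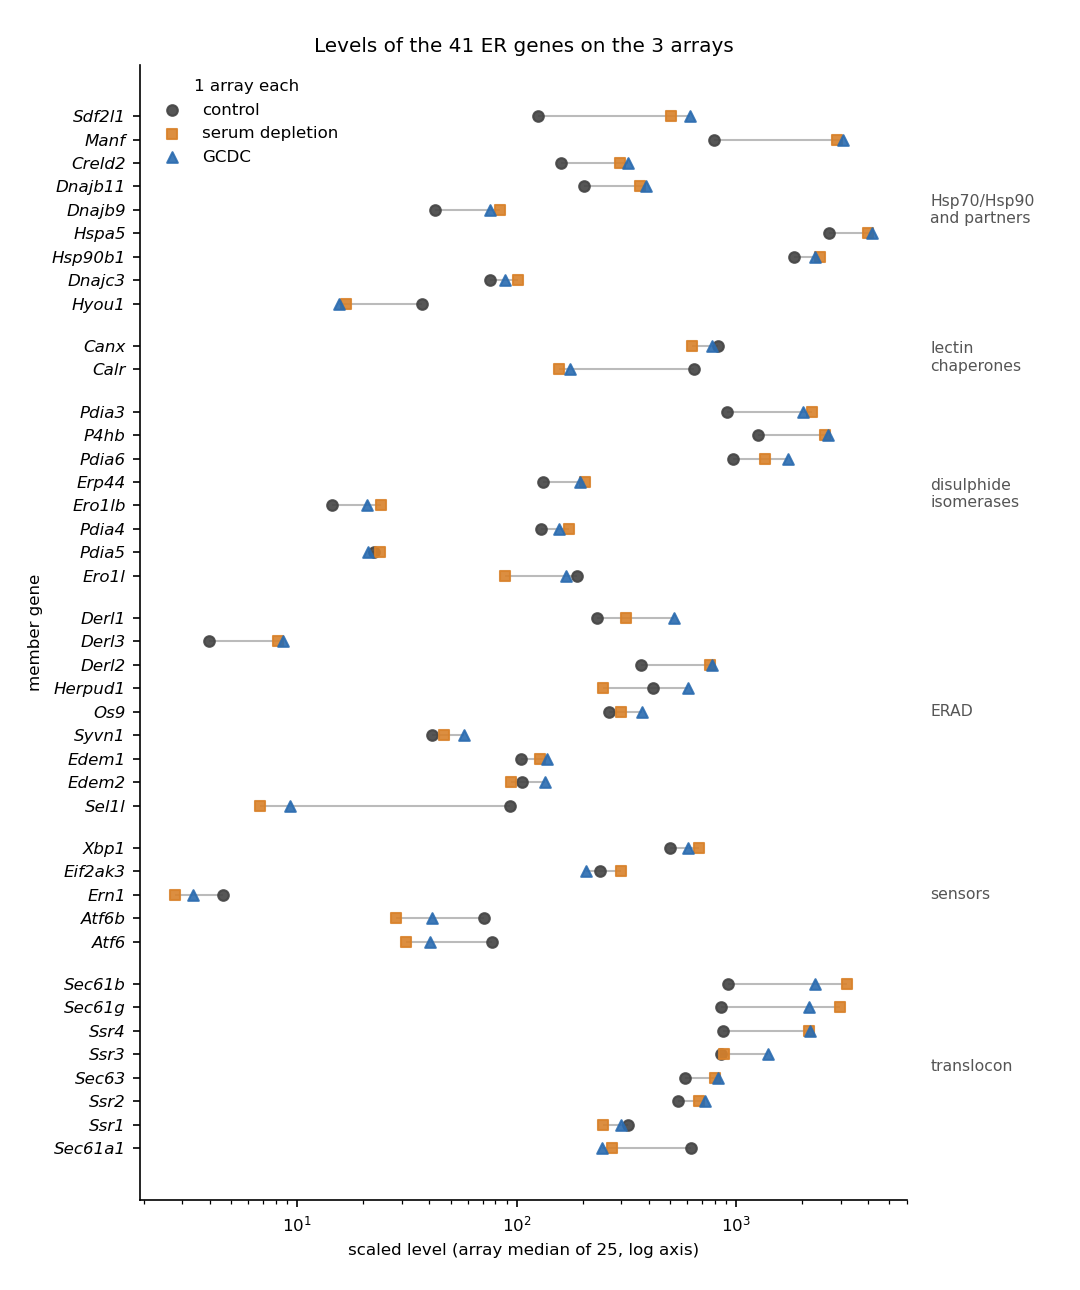
Scaled level (log axis, array median of 25) of each of the 41 ER genes on the control (circle), serum depletion (square) and GCDC (triangle) arrays, 1 array each, grouped by role. The treated arrays lie within 2-fold of each other for 40 of the 41 genes, with *Sel1l* and *Calr* far below control and *Sdf2l1* and *Manf* far above it. The level of one gene's probe cannot be set against another's.

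Among the 9 genes of the Hsp70 and Hsp90 chaperones and their partners, 2 rose and 1 fell in serum depletion and 3 rose and 1 fell in GCDC. Each role holds few genes, so the counts by role are to be read beside the shares of all probes given above. Levels are given in the order control, serum depletion and GCDC, followed by the log2 ratios of serum depletion and GCDC to control. *Sdf2l1*, which joins BiP and its J-protein partner in a complex, was at 126, 508 and 616, with log2 ratios of 2.01 and 2.29. *Manf*, a BiP-binding ER protein that can also be secreted, was at 791, 2894 and 3069 (1.87 and 1.96). Both treated arrays were far above control for each, and over the other scalings *Sdf2l1* ranged from 1.57 to 2.17 and from 1.64 to 2.36, and *Manf* from 1.08 to 2.03 and from 1.14 to 2.03.

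*Hspa5*, which encodes BiP, the main Hsp70 of the ER and the classical readout of the unfolded protein response, was at 2657, 3999 and 4179 (0.59 and 0.65). It was higher on both treated arrays but within 2-fold, and its ratio changed sign over the scalings, from -0.32 to 0.75 and from -0.25 to 0.72. *Hsp90b1*, the ER form of Hsp90, was at 1843, 2418 and 2278 (0.39 and 0.31), and its ratios also crossed 0, from -0.47 to 0.55 and from -0.54 to 0.38. Both chaperones, whose promoters hold the matches shown above, were thus not past the threshold on either treated array.

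The J-proteins recruit BiP to its clients. *Dnajb11* was at 204, 364 and 388 (0.84 and 0.93) and *Dnajb9* at 42.4, 84.0 and 75.8 (0.99 and 0.84), the latter just inside 2-fold in serum depletion. *Dnajc3* was at 75.3, 102 and 88.1 (0.43 and 0.23), and its other probe gave 0.32 and -0.27, so its sign in GCDC differed between probes. *Creld2*, a stress-inducible ER protein, was at 159.7, 295 and 324 (0.89 and 1.02) and passed 2-fold in GCDC by a narrow margin.

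*Hyou1*, the large Hsp70-like exchange factor that resets BiP, went the other way, at 37.2, 16.7 and 15.5 (-1.15 and -1.27). Both treated arrays were below control under all 6 scalings, and with a background correction that adds an offset (normexp with an offset of 50) the ratios were -0.39 and -0.45. *Calr*, calreticulin, a lectin chaperone of the lumen, fell most among the bright ER genes, at 642, 155 and 176 (-2.05 and -1.87). Its ratios ranged from -2.49 to -1.89 and from -2.52 to -1.80 over the scalings. *Canx*, the membrane-bound lectin chaperone calnexin, was at 827, 629.8 and 778 (-0.39 and -0.09), within 2-fold on both treated arrays.

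Of the 8 disulphide isomerases and oxidases, 2 rose and 1 fell in serum depletion, and 2 rose and 0 fell in GCDC. *Pdia3*, the isomerase that works with calreticulin and calnexin, was at 909, 2229 and 2014 (1.29 and 1.15). *P4hb*, the founding protein disulphide isomerase, was at 1261, 2556 and 2613 (1.02 and 1.05). Both treated arrays were above control for each, yet neither stayed past 2-fold under every scaling, with *Pdia3* from 0.54 to 1.45 and from 0.36 to 1.22, and *P4hb* from 0.18 to 1.18 and from 0.23 to 1.12. *Pdia3* and *Calr*, whose proteins act as partners, therefore had opposite signs on the same arrays.

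*Pdia6* was at 969, 1356 and 1732 (0.48 and 0.84), *Pdia4* at 129.7, 173 and 156 (0.41 and 0.27) and *Pdia5* at 22.3, 23.8 and 21.1 (0.09 and -0.08). *Erp44*, which holds back unassembled proteins in the early secretory pathway, was at 133, 205 and 194 (0.63 and 0.55). All of these were within 2-fold. The oxidase *Ero1l*, now named *Ero1a*, which reoxidises the isomerases, was at 188, 88.9 and 168 (-1.08 and -0.16), so it fell in serum depletion and was close to control in GCDC. Its relative *Ero1lb*, now *Ero1b*, was at 14.4, 24.2 and 20.8 (0.74 and 0.53), while its dimmer probe gave -0.58 and -0.15, the opposite sign.

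Among the 9 genes of ER-associated degradation (ERAD), which returns misfolded proteins to the cytosol, 2 rose and 1 fell in serum depletion and 3 rose and 1 fell in GCDC. *Sel1l*, the adaptor that holds the ubiquitin ligase complex together, showed the largest ratio of the 41 genes, at 92.9, 6.76 and 9.30 (-3.78 and -3.32). Both treated arrays were far below control, though still 9.89 and 15.8 SD of the blanks above background. The ratios were -1.52 and -1.45 with the offset background correction. *Syvn1*, the ubiquitin ligase that SEL1L serves, was at 41.1, 46.5 and 57.7 (0.18 and 0.49) and stayed within 2-fold.

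The derlins form part of the channel through which ERAD clients leave. *Derl2* was at 368, 761 and 778 (1.05 and 1.08) and *Derl1* at 233, 315 and 524 (0.43 and 1.17), the GCDC array being the highest for *Derl1*. *Derl3* was at 3.98, 8.19 and 8.66 (1.04 and 1.12), close to background on all 3 arrays. None of the derlins stayed past 2-fold under every scaling.

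*Edem1* and *Edem2*, which help trim mannose from misfolded glycoproteins, were at 104, 128 and 138 (0.29 and 0.40) and 106, 94.6 and 135 (-0.17 and 0.35). *Os9*, a lectin that reads the trimmed sugars, was at 263, 298 and 373 (0.18 and 0.50). *Herpud1*, a membrane protein that organises the degradation complex, was at 420.1, 248 and 602 (-0.76 and 0.52), lowest in serum depletion and highest in GCDC. None of these 4 passed 2-fold against control.

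The sensors and transcription factors did not rise on either treated array, with 0 of 5 higher and 2 of 5 lower in serum depletion and 0 of 5 past 2-fold in GCDC. *Atf6* was at 77.2, 31.4 and 40.4 (-1.30 and -0.93). *Atf6b*, its relative, was at 71.0, 28.2 and 41.2 (-1.33 and -0.78). Both were below control on both treated arrays, past 2-fold in serum depletion under every scaling (-1.75 to -1.14 and -1.78 to -1.17) but at -0.69 and -0.67 under the offset background correction, within 2-fold.

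*Eif2ak3* was at 240.2, 299 and 206 (0.31 and -0.22), with the control level between the treated ones. *Ern1* was at 4.59, 2.78 and 3.34 (-0.72 and -0.46), which is 4 to 9 SD of the blanks above background. *Xbp1*, whose splicing was not measured, was at 502, 680.3 and 607 (0.44 and 0.27), with a sign that changed over the scalings.

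The 8 translocon genes, whose products let new proteins into the ER, held 3 that rose and 1 that fell in both treatments. The small subunits *Sec61b* at 917, 3211 and 2301 (1.81 and 1.33) and *Sec61g* at 857, 2984 and 2142 (1.80 and 1.32) rose together and were higher in serum depletion than in GCDC. The pore-forming subunit *Sec61a1* was at 622, 273 and 246 (-1.19 and -1.34) and fell in both. The subunits of 1 channel thus had opposite signs under every scaling, with *Sec61a1* from -1.66 to -1.03 and from -1.99 to -1.27, and *Sec61b* from 1.01 to 1.96 and from 0.52 to 1.40.

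*Ssr4*, a subunit of the translocon-associated protein complex, was at 871, 2160.1 and 2163 (1.31 and 1.31). The other subunits were within 2-fold, with *Ssr3* at 852, 881 and 1394 (0.05 and 0.71), *Ssr2* at 544, 678 and 720.2 (0.32 and 0.40) and *Ssr1* at 320.3, 248 and 299.7 (-0.37 and -0.10). *Sec63*, which couples the channel to BiP, was at 588, 803 and 825 (0.45 and 0.49).

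**Figure D2:**
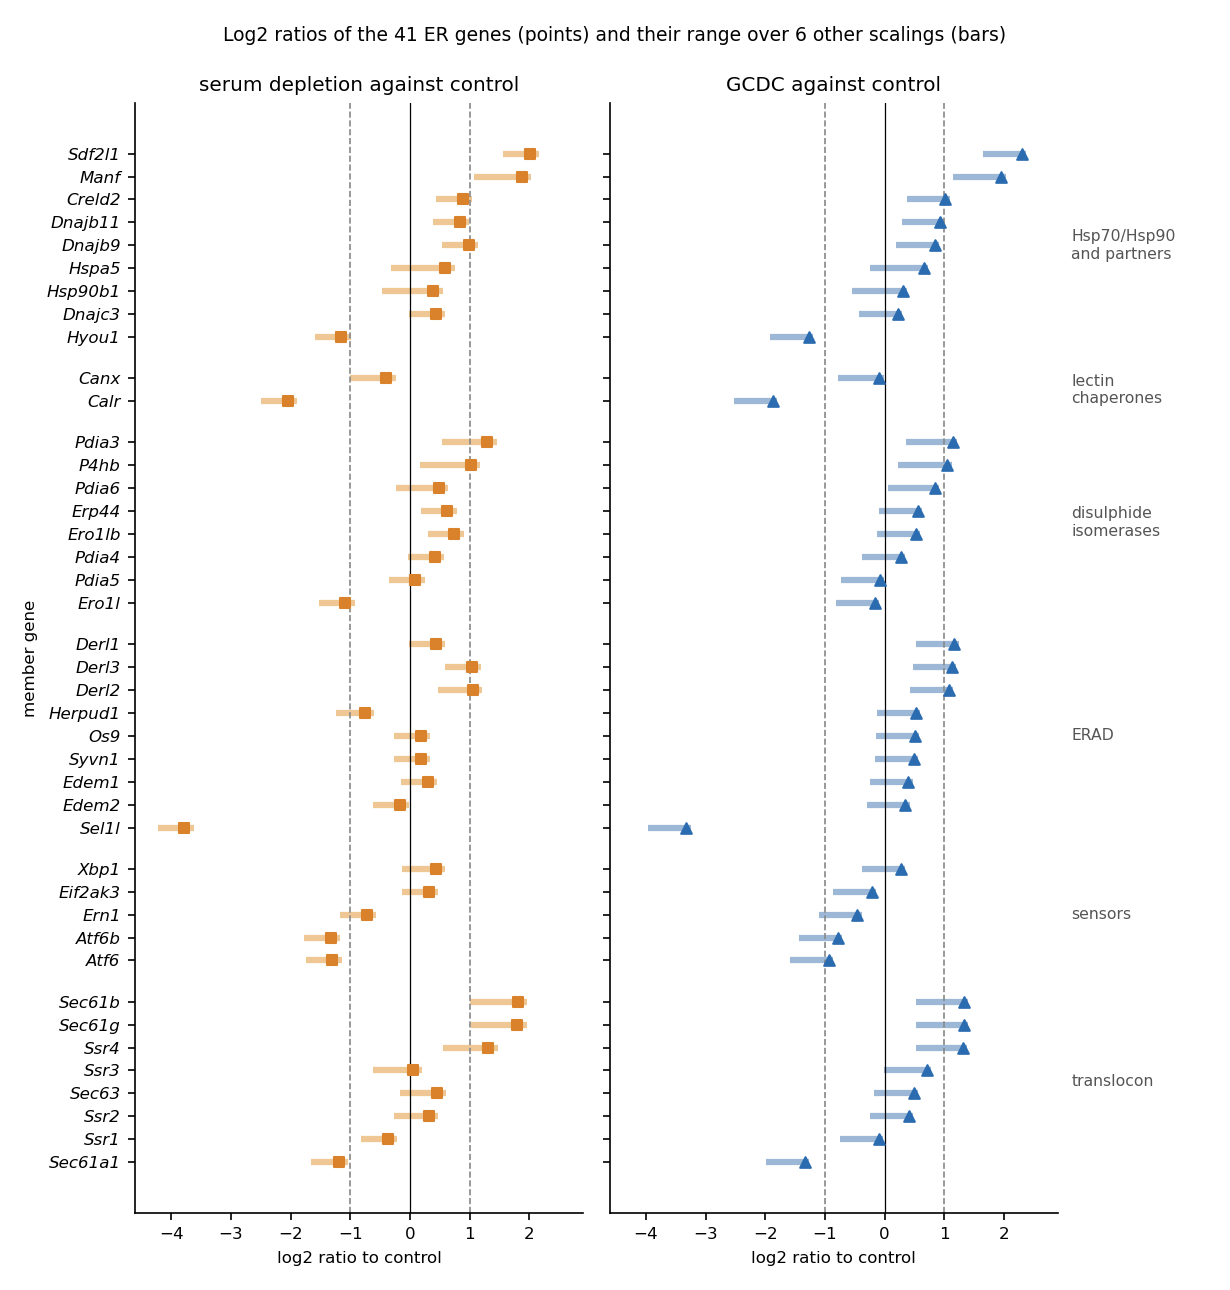
Log2 ratio to control of the 41 ER genes in serum depletion (left, squares) and GCDC (right, triangles), with bars for the range over the value shown and 6 other scalings and dashed lines at 2-fold. The bars of *Manf* and *Sdf2l1* lie past 1 and those of *Calr*, *Sel1l* and *Sec61a1* past -1 in both treatments, while the bars of *Hspa5* and *Hsp90b1* cross 0.

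The members with the ER stress response element were set beside the others, as a description. Of the 10 genes with the element, 1 rose and 1 fell in serum depletion, and 2 rose and 1 fell in GCDC, with median log2 ratios of 0.46 and 0.51. Of the 23 genes in the promoter table with neither form, 7 rose and 3 fell in serum depletion and 7 rose and 1 fell in GCDC, with medians of 0.41 and 0.49. The medians of both sets were close, and the genes with the element spanned *Calr* at -2.05 to *Derl3* at 1.04 in serum depletion. The 23 genes include *Pdia3*, *Pdia4* and *Derl2*, which held the element with its last base left free. Of these, *Pdia3* and *Derl2* rose in both treatments. The gene with the element that rose in serum depletion was *Derl3*, close to background. The counts of the sets thus depend on how strictly the element is read.

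Gene length was also set beside the ratios. Over the 41 genes, the genomic span and the log2 ratio had a Spearman correlation of -0.42 in serum depletion and -0.48 in GCDC, as a description, with all genes read from the same 2 arrays. Over all probes with a span it was -0.21 (n = 17524) and -0.22 (n = 17765). The ER genes that rose had a median span of 6.85 kb in serum depletion and 7.04 kb in GCDC, against 15.2 kb over all 41. For the ER genes that fell, the median span was also 15.2 kb in serum depletion and slightly below that in GCDC. By this median the genes that fell were thus not longer than the 41 as a whole.

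GCDC was also compared directly with serum depletion, which does not use the control array. Of the 41 ER genes 1 was more than 2-fold higher in GCDC (2.44%) and 0 were lower, where 2.92% of all probes were higher and 2.20% lower. The median log2 ratio was 0.08, and 0.08 over all probes too. The share of ER genes past 2-fold was thus close to the background. The gene was *Herpud1*, at 248 in serum depletion and 602 in GCDC, with a log2 ratio of 1.28 and 1.08 to 1.23 over the scalings. Its promoter, printed above, held both the shorter ER stress element and the amino acid response element. The latter was in 2.86% of member genes and 4.50% of all genes, and a link between these elements and the level was not tested. The next largest differences were *Ero1l* at 0.92, *Derl1* at 0.74 and *Ssr3* at 0.66, and on the other side *Eif2ak3* at -0.53, *Sec61b* at -0.48 and *Sec61g* at -0.48. All 9 ERAD genes had a ratio above 0, from 0.03 to 1.28 with a median of 0.32, where 58.9% of all probes were above 0, and 6 of the 9 stayed above 0 under every scaling. Of 22 ERAD genes outside the 41, 14 were above 0 (63.6%), nearer to the share of all probes. Their median was 0.18 and 0 were past 2-fold, so the direction of the 9 does not hold for ERAD genes at large.

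The genes of the PERK, ATF4 and CHOP arm, a list of 10 measured genes outside the 41, were compared in the same way. In the direct comparison 3 of 10 were more than 2-fold higher in GCDC and 0 lower. Over all probes 2.92% were higher and 2.20% lower. Of the 10 genes, 9 had a ratio above 0 (under every scaling too) beside 58.9% of all probes. The median was 0.62 against 0.08 over all probes. With the offset background correction 1 of the 10 was past 2-fold. *Trib3*, a pseudokinase that ATF4 and CHOP are known to raise, was at 46.0, 22.6 and 74.2 on the 3 arrays, with a log2 ratio of GCDC to serum depletion of 1.72. *Chac1*, a glutathione-degrading enzyme known as a target of the same arm, was at 476, 699.8 and 1961 (1.49). *Atf3*, a stress-induced transcription factor, was at 150.5, 89.8 and 197 (1.13). GCDC was the highest array for all 3, and these genes were named after their values were seen.

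Against control, 2 of the 10 rose and 0 fell in GCDC, while 1 rose and 2 fell in serum depletion. Over all compared probes 13.0% rose and 8.51% fell in GCDC, and 13.5% rose and 11.1% fell in serum depletion. *Ddit3*, which encodes CHOP, was at 339.7, 748 and 1267 with log2 ratios to control of 1.14 and 1.90, so it rose in both and was highest in GCDC. *Atf4*, also named after its values were seen, was at 2349.7, 2010.4 and 3465 (-0.23 and 0.56), within 2-fold. It ranged from -1.09 to -0.07 and from -0.31 to 0.63 over the scalings. The rest of the list, named after the values too, did not rise. Ratios to control were -0.33 and -0.40 for *Ppp1r15a*, -1.02 and -0.69 for *Ppp1r15b* and -0.95 and -0.67 for *Bbc3*. They were -0.14 and 0.19 for *Sesn2* and -0.48 and 0.01 for *Ddit4*. Direct ratios of these genes ran from -0.07 (*Ppp1r15a*) to 0.49 (*Ddit4*). Over the scalings *Ddit3* ranged from 0.54 to 1.30 in serum depletion and from 1.24 to 1.97 in GCDC, *Chac1* from 1.35 to 2.11 in GCDC, and the direct ratio from 1.51 to 1.67 for *Trib3*, 1.28 to 1.44 for *Chac1* and 0.93 to 1.09 for *Atf3*.

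**Figure D3:**
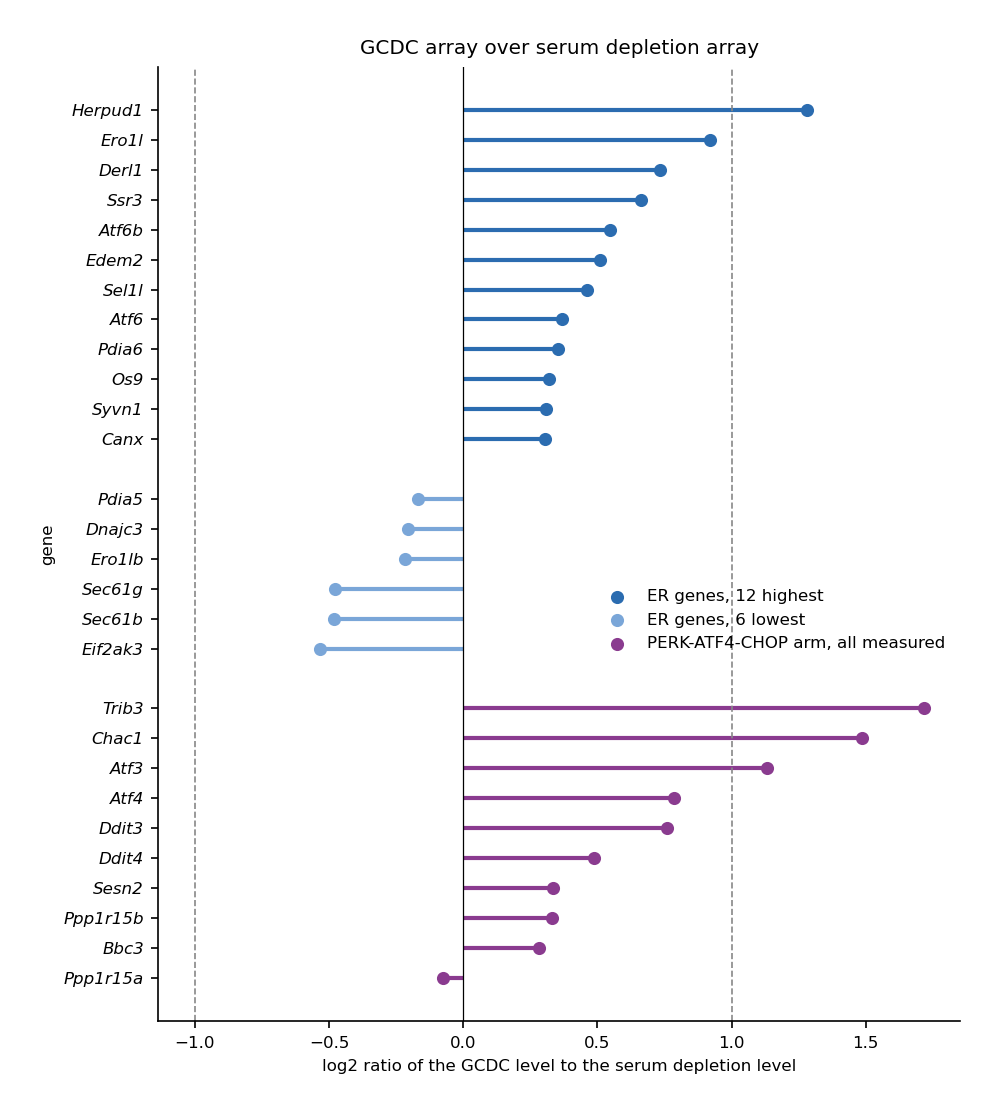
Log2 ratio of the GCDC level to the serum depletion level for the 12 highest and 6 lowest of the 41 ER genes and for the 10 measured genes of the PERK, ATF4 and CHOP arm, with dashed lines at 2-fold. *Herpud1* is the only ER gene past 1, beside *Trib3*, *Chac1* and *Atf3* of the PERK arm.

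The rest of the ER pathway was read from 7 further lists. Their counts are to be read beside all compared probes, of which 13.5% rose and 11.1% fell in serum depletion. In GCDC 13.0% of all probes rose and 8.51% fell. Among 33 other luminal folding factors compared, 16 rose (48.5%) and 3 fell after serum depletion, whereas 16 rose (47.1%) and 0 fell of 34 compared after GCDC, with medians of 0.90 and 0.82. The largest were *Ppic*, a cyclophilin of the secretory pathway, at 48.2, 383 and 343 (2.99 and 2.83), *Fkbp7* at 16.4, 127 and 128 (2.95 and 2.96) and *Fkbp11* at 12.4, 59.7 and 105 (2.27 and 3.09), which are ER proteins of the FK506-binding family. All 3 were past 2-fold under every scaling. The count depended on the scaling and was 7 to 10 in serum depletion and 7 to 8 in GCDC with quantile normalization, cyclic loess or no scaling, and 5 and 7 with the offset background correction.

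Of 16 genes of the signal recognition particle and signal peptidase, which target and trim new proteins, 6 rose and 1 fell in both treatments. *Srp14* was at 689, 2939 and 2869.9 (2.09 and 2.06), *Srp19* at 389.9, 1415 and 1086 (1.86 and 1.48) and *Spcs1* at 656, 1828 and 1929 (1.48 and 1.56). Both treated arrays were above control for each. Of 22 genes of N-glycosylation and the calnexin cycle, 6 rose and 2 fell in serum depletion and 7 rose and 2 fell in GCDC. *Krtcap2*, a subunit of the oligosaccharyltransferase, was at 655, 2672 and 2974 (2.03 and 2.18). *Uggt1*, the glucosyltransferase that sends unfolded glycoproteins back to calnexin and calreticulin, was at 103, 23.6 and 22.5 (-2.12 and -2.19), and *Pmm2*, which makes mannose phosphate for the sugar chain, at 159, 35.8 and 42.3 (-2.15 and -1.91). *Uggt1* thus fell on the same arrays as *Calr*.

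Of 22 other ERAD genes, 4 rose and 3 fell in serum depletion and 3 rose and 2 fell in GCDC. *Nploc4*, a cofactor of the ATPase that pulls clients into the cytosol, was at 65.5, 5.40 and 6.21 (-3.60 and -3.40), a fall close in size to that of *Sel1l*. The selenoproteins *Selenok* at 772, 2657 and 2602 (1.78 and 1.75) and *Selenos* at 609, 1889 and 1576 (1.63 and 1.37) rose. Of 25 genes of ER to Golgi transport, 5 rose and 2 fell in serum depletion and 6 rose and 2 fell in GCDC. The cargo receptor *Tmed3* was at 94.2, 316 and 301 (1.75 and 1.68), the lectin *Lman2* at 75.3, 22.3 and 28.8 (-1.75 and -1.39) and the coat subunit *Sec23a* at 124, 38.3 and 58.9 (-1.69 and -1.07).

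Of 12 other regulators of the unfolded protein response, 1 rose and 2 fell in serum depletion and 2 rose and 0 fell in GCDC, with *Creb3*, an ER-anchored transcription factor, at 572, 1196 and 1455 (1.06 and 1.35). Of 7 genes of ER calcium handling, 2 rose and 2 fell in serum depletion and 2 rose and 0 fell in GCDC. *Stim1*, the ER calcium sensor, was at 82.7, 240.4 and 264 (1.54 and 1.67) and *Tmco1*, an ER calcium channel protein, at 947, 2093 and 2347 (1.14 and 1.31). Over all 8 lists, 41 of 147 rose (27.9%) and 17 fell (11.6%) in serum depletion, where 13.5% of all probes rose and 11.1% fell. In GCDC 44 of 148 rose (29.7%) and 7 fell (4.73%), where 13.0% of all probes rose and 8.51% fell. For probes with a control level above 100, the share that rose was 20.1% in serum depletion and 20.4% in GCDC. Among the genes named from these lists, *Srp19*, *Spcs1*, *Selenok*, *Selenos*, *Creb3* and *Tmco1* were not past 2-fold under every scaling in both treatments, and neither was *Ddit3*.

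Over all probes 2.92% were more than 2-fold higher in GCDC than in serum depletion and 2.20% lower. In the direct comparison 8 of 147 genes of these lists were higher in GCDC (5.44%) and 0 lower. Beside the 3 of the PERK arm these were *Wfs1*, *Qsox1*, *Prdx4*, *Stim2* and *Kdelr3*, named after their values were seen. *Prdx4* was not past 2-fold under any of the other scalings (0.82 to 0.97). *Kdelr3*, a receptor that returns escaped chaperones from the Golgi, was at 17.3, 20.5 and 63.0, with a log2 ratio of GCDC to serum depletion of 1.62. *Qsox1*, a sulphydryl oxidase, was at 255, 51.1 and 142 (1.47), and *Wfs1*, the ER membrane protein wolframin, at 223, 72.7 and 228 (1.65). *Kdelr3* was near control in serum depletion and high in GCDC, while *Qsox1* and *Wfs1* were lowest in serum depletion.

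**Figure D4:**
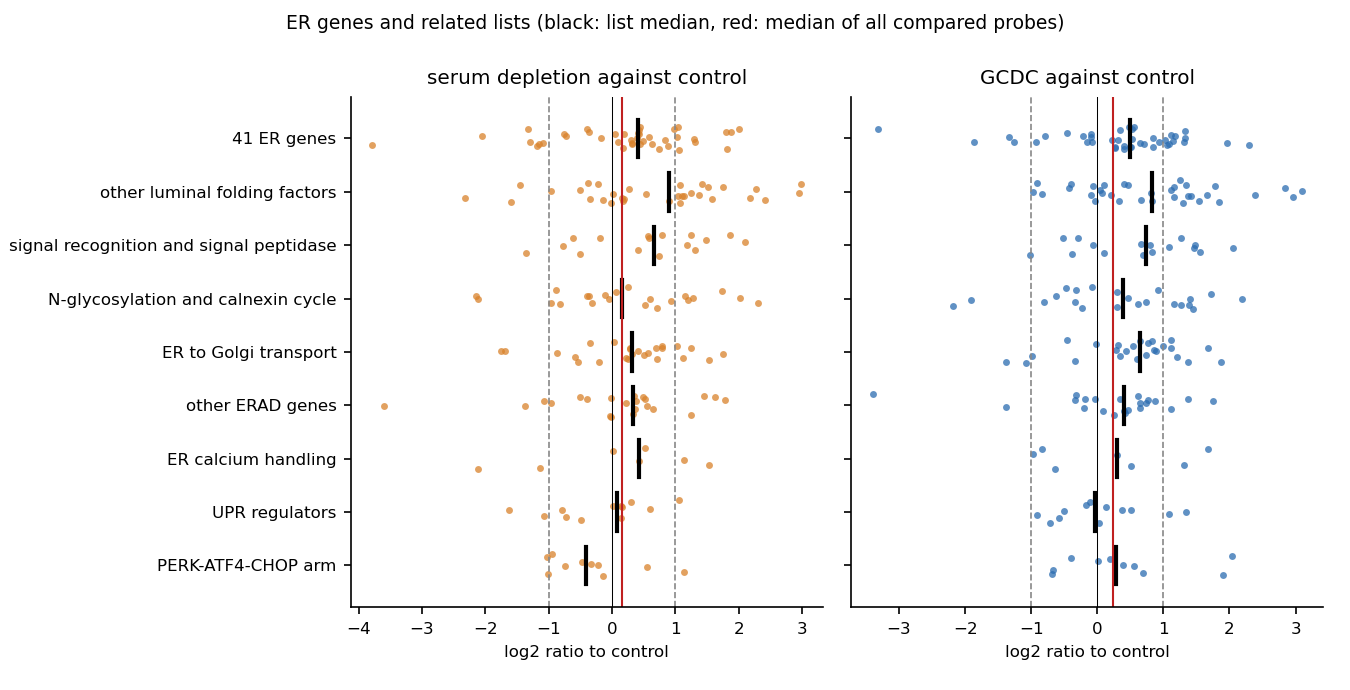
Log2 ratio to control of each gene (points) of the 41 ER genes and 8 related lists in serum depletion (left) and GCDC (right), with the list median (black bar), the median of all compared probes (red line, 0.16 and 0.23) and dashed lines at 2-fold. In this scaling the other luminal folding factors have the highest medians (0.90 and 0.82), and the median of the 41 ER genes (0.41 and 0.49) was 0.0065 and 0.067 after quantile normalization and -0.034 and -0.16 with no scaling, where that of all probes was -0.28 and -0.41.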

How the data were processed

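One-colour 3D-Gene arrays were used, 1 each for control, serum-depleted and GCDC-treated mouse BECs, grouped by the sample labels, each with RNA pooled from 2 experiments. The authors deposited the linear scanner intensity of each spot before background subtraction, and a table of processed intensity with blanks subtracted and a median of 25 on every array. The genome build and software version are not given in the sources used here. A second microarray named in the methods is not analysed here.

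Levels were recomputed from the scanner intensities: the mean of blank spots from the 5th to the 95th percentile was subtracted, probes above 2 SD of the blanks were valid, and levels were scaled so that valid gene probes had a median of 25. This gave the same valid probes as the deposited table on all 23473 gene probes, and the levels of the 41 genes differed from it by at most 1.30%. The scaling factors were 0.615, 0.838 and 0.964, and the median valid signal lay 40.6, 29.8 and 25.9 above the blanks, which limits the precision of dim probes, as does the number of arrays. Probes were named through the platform annotation (20690 probes with 1 symbol, 20556 of them matched by gene identifier to current names).

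Treated and control levels were compared as ratios, with a threshold of 2-fold and no p-value. The 41 members and the 8 related lists (149 of 158 genes found, the others not analysed here) were chosen with earlier results of these data known. Named genes were all 41 members and, of each related list, up to 3 genes past 2-fold the same way in both treatments, ranked by mean change. Genes outside this rule are marked as such. Alternatives tried were validity limits, 6 scalings, normexp with an offset of 50, the deposited table, the probe of a gene and a threshold of 1.5-fold. Promoter sequences came from RefSeq (GRCm38.p6). The steps were tested on simulated data. Python 3.11.15, numpy 2.4.6, pandas 2.3.3, scipy 1.17.1, matplotlib 3.10.9, R 4.3.3 and limma 3.58.1 were used.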

Additional observations from a re-analysis of the deposited data

Results flagged for a closer look

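For 4 genes the treatments had opposite signs against control and also differed by more than 2-fold from each other, and the difference was not tested, since each condition had 1 array. *Herpud1* was below control in serum depletion (log2 ratio of -0.76) and above it in GCDC (0.52), a difference of 1.28. *Trib3* had -1.03 and 0.69 (1.72), *Atf3* had -0.75 and 0.39 (1.13), and *Wfs1* had -1.62 and 0.03 (1.65). The value in GCDC lay within 2-fold of control for all 4. It changed sign over the scalings for *Herpud1* (-0.13 to 0.59), *Atf3* (-0.26 to 0.46) and *Wfs1* (-0.62 to 0.10), but the difference between the treated arrays did not.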

How the results depend on the processing

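No paired analysis was possible because each condition had 1 array. For the 41 genes, the count higher in serum depletion (9) was 4 with cyclic loess or no scaling, 3 with normexp and 15 at 1.5-fold. The count lower (7) was 3 with levels above 100, 4 with normexp, 8 with quantile normalization and 9 with cyclic loess or no scaling. In GCDC, the count higher (11) was 5 with equal 75th percentiles or centred ratios, 3 with quantile normalization, and 2 with cyclic loess, no scaling or normexp. The count lower (4) was 2 with levels above 100 and 7 with no scaling. In GCDC against serum depletion the count higher (1) was 4 at 1.5-fold. The median in serum depletion (0.41) was 0.27 with equal 75th percentiles, 0.57 with the median taken over probes valid throughout, 0.0065 with quantile normalization, -0.019 with cyclic loess, -0.034 with no scaling, 0.0056 with normexp and 0.25 centred. In GCDC (0.49) it was 0.30, 0.067, 0.013, -0.16 and 0.062 with equal 75th percentiles, quantile normalization, cyclic loess, no scaling and normexp, and 0.25 centred. With alternatives added after seeing the data, the luminal folding factors higher (16 in each treatment) were 10 and 8 with quantile normalization, 7 and 8 with cyclic loess, 8 and 7 with no scaling, and 5 and 7 with normexp. The 3 genes of the PERK arm higher in GCDC than in serum depletion became 1 with normexp and 5 at 1.5-fold. The cause of these shifts was not tested. Of 1689 values of single genes under the alternatives, 1574 stayed on the same side of 2-fold, 80 were no longer past it, 35 passed it newly, and 0 of those past it changed sign. The alternatives include validity limits, the deposited table and the choice of probe, which leave most of these ratios nearly unchanged. Others shift all ratios by the same amount. Much of this agreement was thus fixed by the settings and does not measure how stable a single value is. Dim probes, such as those of *Ern1* and *Derl3*, limit what can be seen.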
